A study of Mus musculus with 11 samples.

Results

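Primary myoblasts of wild-type mice were compared after 6 h at 1% oxygen (hypoxia) and after 6 h at 21% oxygen (normoxia). Myoblasts are the dividing precursor cells that build and repair skeletal muscle. The cells came from the tibialis anterior muscle of C57BL/6 mice (the design text writes C57b6/J) aged about 8 weeks, and grew in Ham's F-10 with 20% serum and 2.5 ng/ml of basic fibroblast growth factor. Total RNA was taken straight after the exposure. The wild-type libraries are 5 of the 11 in the series, 2 of normoxia and 3 of hypoxia, and the other 6 come from Bmal1-/- myoblasts, 3 per oxygen level, used here for the shared error estimate and as a second set of cells. A gene was included if its normalized count was at least 10 in at least 2 libraries, which 14729 of the 22104 genes in the table met. No label ties a library to a mouse or a culture, so the p-values measure only how far these libraries scatter, and that scatter may be technical. Nor do the labels say how the mice were made or whether animals were pooled.

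Cells sense oxygen through prolyl hydroxylases, which use it to mark the alpha subunits of the hypoxia-inducible factors (HIF) for destruction by the von Hippel-Lindau protein. When oxygen falls the subunits persist, pair with ARNT and bind DNA at sites with the core letters ACGTG or GCGTG. Their known targets shift the cell from respiration to glycolysis, trim mitochondria, stiffen collagen and call for blood vessels. In muscle the same pathway is known for its part in the response to exercise, ischaemia and injury.

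In the limma fit 320 genes (2.17% of those tested) changed at a Benjamini-Hochberg adjusted p under 0.05. They were 251 genes that rose (1.7%) and 69 that fell (0.468%). The rises were larger than the falls, with a median log2 change of 0.61 against -0.36, while the median of all tested genes was -0.003 and the median SE 0.11. At an unadjusted p under 0.05 there were 2000 genes, 13.6% of those tested, and counts at that level given for gene lists are read against this share. The shares of a gene list that rose or fell are likewise read against the 1.7% and 0.468% of all tested genes. Of the risen genes 74 rose by at least 2-fold and 21 by at least 4-fold. Of the fallen genes 7 fell by at least 2-fold and 1 by at least 4-fold. A further 123 of the risen and 55 of the fallen changed by less than 1.5-fold. In each of the 320 genes the values of the groups did not overlap, which was also so for 15.41% (higher) and 14.37% (lower) of all tested genes. Without any 1 of the 5 wild-type libraries, 111 of the 251 rises and 9 of the 69 falls passed every time. Only 1 normoxia library remains when the other is left out, and its scatter is then taken to be that of the other groups. Without normoxia replicate 1 the counts were 153 risen and 34 fallen, without normoxia replicate 2 they were 143 and 18, and without hypoxia replicate 2 there were 36 fallen.

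**Figure D1:**
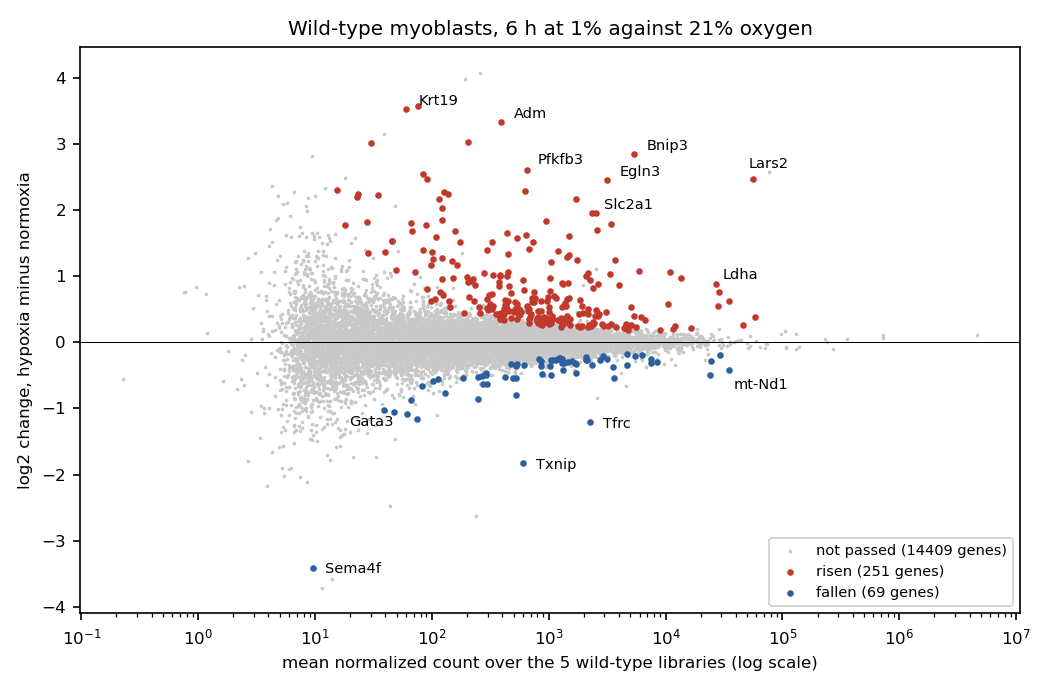
Each point is a gene, with its mean normalized count over the 5 wild-type libraries on a log x axis and its log2 change on the y axis. The 251 risen genes (red) reach 3.58 and lie at all levels, while the 69 fallen genes (blue) lie mostly between 0 and -1.

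Recovered reads per wild-type library were 21451760 and 19668258 in normoxia and 24587342, 33613328 and 30112840 in hypoxia, and even the shallowest hypoxia library was deeper than either of normoxia. The values are scaled for depth, and the part of depth in the calls was not tested. Detection rose with level, from 0.368% of genes risen where the mean normalized count was under 50 to 4.3% where it was over 5000. By gene class, 237 of the 251 risen and 64 of the 69 fallen genes were protein-coding. The wild-type pairs of 1 oxygen level differed by more than sampling noise (chi-square over its degrees of freedom 4.33 to 13.95, where counting alone gives 1), so none was a library deposited a second time.

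The genes with the largest rises among those named by the rule were Krt19, Adm, Ankrd37, Bnip3 and Pfkfb3. Krt19 (ENSMUSG00000020911, chr11:100140810-100148665 in GRCm38), a keratin of simple epithelia, was counted at 10.7 and 4.57 in the normoxia libraries and 126, 66.1 and 94.8 in the hypoxia libraries. Its lowest hypoxia value was several times its highest normoxia value, and it rose by 3.53 on the log2 scale (SE 0.45, adjusted p = 0.000433). Adm (ENSMUSG00000030790), which encodes the vasodilator peptide adrenomedullin, stood at 58.9 and 60.5 in normoxia and 724, 559 and 563 in hypoxia. Both normoxia libraries were close together, with the hypoxia libraries far above them (log2 change 3.33, SE 0.14, adjusted p = 1.13e-08). Ankrd37, an ankyrin repeat protein known as a HIF target, had 38.5 and 35.4 in normoxia and 386, 264 and 292 in hypoxia (8.19-fold). Gpr35, a G protein-coupled receptor, went from 39.6 and 33.1 to 178, 166 and 158 (4.52-fold). These folds, like the log2 changes, are on the log2(normalized count + 1) scale, on which the change of a low gene comes out too small.

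Among the 15 risen genes with the largest changes, the 5 with the smallest adjusted p and a promoter in the RefSeq table were Pfkfb3, Bnip3, Egln3, Ak4 and Adm, and their sequences show the letters that HIF is known to bind. Each window runs from 250 bases before to 50 bases after the most upstream listed transcript start in GRCm38.p6, 5′ to 3′ on the gene's strand. Capitals mark every ACGTG and GCGTG and their reverse complements CACGT and CACGC, and overlapping matches merge, as in CACGTG. The positions are chr2:11553880-11554179 (minus strand) for Pfkfb3, chr7:138909457-138909756 (minus) for Bnip3, chr12:54203825-54204124 (minus) for Egln3, chr4:101419039-101419338 (plus) for Ak4 and chr7:110627407-110627706 (plus) for Adm.
Pfkfb3: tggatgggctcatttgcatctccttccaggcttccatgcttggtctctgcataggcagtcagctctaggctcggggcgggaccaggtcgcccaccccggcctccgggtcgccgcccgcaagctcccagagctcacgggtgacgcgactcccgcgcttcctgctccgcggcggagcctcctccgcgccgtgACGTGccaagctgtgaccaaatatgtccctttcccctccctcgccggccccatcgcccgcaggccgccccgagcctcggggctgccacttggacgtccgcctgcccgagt
Bnip3: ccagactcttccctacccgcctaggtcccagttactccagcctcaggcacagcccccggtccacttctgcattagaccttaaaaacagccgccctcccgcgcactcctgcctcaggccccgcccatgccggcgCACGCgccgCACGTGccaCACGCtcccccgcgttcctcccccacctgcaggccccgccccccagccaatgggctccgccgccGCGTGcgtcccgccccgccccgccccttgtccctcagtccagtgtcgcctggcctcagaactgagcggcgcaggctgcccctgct
Egln3: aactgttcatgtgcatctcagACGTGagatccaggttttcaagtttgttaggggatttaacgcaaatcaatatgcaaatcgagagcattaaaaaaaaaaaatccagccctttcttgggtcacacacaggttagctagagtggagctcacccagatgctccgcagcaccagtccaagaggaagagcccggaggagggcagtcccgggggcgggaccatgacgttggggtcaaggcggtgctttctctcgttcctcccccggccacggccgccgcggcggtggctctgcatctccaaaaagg
Ak4: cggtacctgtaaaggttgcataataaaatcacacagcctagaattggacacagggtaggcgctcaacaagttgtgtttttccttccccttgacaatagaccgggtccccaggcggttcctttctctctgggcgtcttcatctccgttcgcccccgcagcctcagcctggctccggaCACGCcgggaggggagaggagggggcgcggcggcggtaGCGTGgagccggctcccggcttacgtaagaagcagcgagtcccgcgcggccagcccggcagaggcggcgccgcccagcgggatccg
Adm: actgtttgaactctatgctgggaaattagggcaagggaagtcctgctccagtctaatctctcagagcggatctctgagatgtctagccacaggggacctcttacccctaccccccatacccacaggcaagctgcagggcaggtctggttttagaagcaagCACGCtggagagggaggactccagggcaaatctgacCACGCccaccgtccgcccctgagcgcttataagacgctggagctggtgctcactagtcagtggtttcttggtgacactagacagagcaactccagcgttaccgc
Bnip3 held 5 matches, with an overlapping pair in CACGTG, Adm and Ak4 held 2 each, and Pfkfb3 and Egln3 held 1 each. Such matches are common, since 63.8% of the 10007 promoters of tested protein-coding genes held at least 1, 34.8% at least 2 and 3.24% at least 5. A match is a description of the letters and not a bound site. Promoters of risen and other genes were not compared, because only 75.5% of the 237 risen protein-coding genes had an entry and 80% was required.

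**Figure D2:**
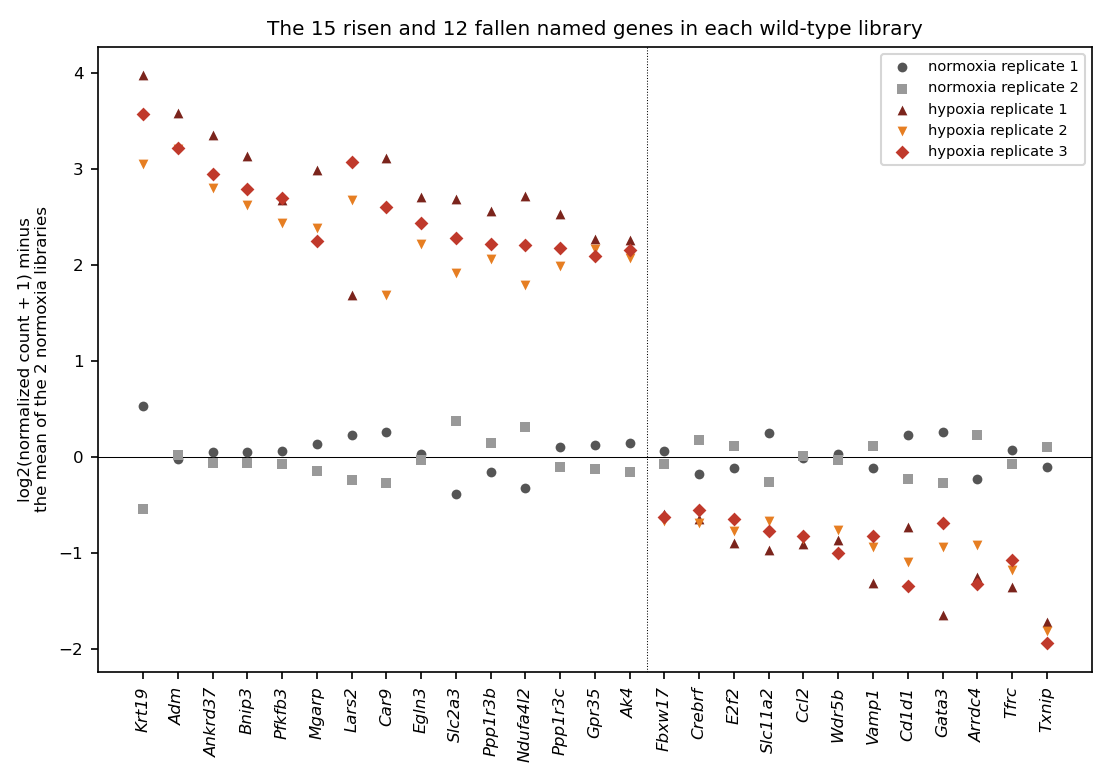
For the 15 risen and 12 fallen genes named by the rule, each point is 1 library, drawn as log2(normalized count + 1) minus the mean of the 2 normoxia libraries. Hypoxia replicate 1 (dark triangles) is the highest for most of the risen genes, and Car9 and Lars2 are spread most widely of them in hypoxia.

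Genes of glucose entry and glycolysis rose together. Of 13 genes from the glucose transporters to phosphofructokinase and its regulators 8 rose and 0 fell (61.5%, against 1.7% of all tested genes), with a median log2 change of 0.58. Slc2a1, the main glucose transporter of growing cells, was counted at 846 and 865 in normoxia and 3839.9, 2919 and 3248 in hypoxia. Slc2a3, a high-affinity glucose transporter, went from 138 and 235 to 1163, 686 and 882, and its normoxia libraries were less alike. Per kilobase of exon the shares of the 2 transporters overlapped between the groups, with Slc2a1 at 92.7% and 88.4% of their sum in normoxia and 87.2%, 89.8% and 88.4% in hypoxia. The hexokinases Hk1 and Hk2, which trap glucose, rose by 0.55 and 0.94, and Hk1 did not pass without normoxia replicate 1 (adjusted p = 0.0536). Gpi1, which turns glucose 6-phosphate into fructose 6-phosphate, rose by 0.58.

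The step that commits sugar to glycolysis changed in make-up. Pfkl, the liver-type phosphofructokinase, was counted at 1973 and 2021 in normoxia and 5113, 4398 and 4795 in hypoxia (log2 change 1.25, SE 0.06, adjusted p = 2.44e-08). Pfkp, the platelet type, rose by 1.01, and the muscle type Pfkm was at 0.08 (SE 0.08, adjusted p = 0.717). Per kilobase of exon, Pfkl made up 51.0% and 50.6% of the 3 genes in normoxia and 63.9% to 64.3% in hypoxia. The PFKFB enzymes set the level of fructose 2,6-bisphosphate, the strongest activator of phosphofructokinase. Of these, Pfkfb3 was counted at 168 and 153 in normoxia and 1032, 871 and 1042 in hypoxia (log2 change 2.60, SE 0.09, adjusted p = 4.65e-09, the smallest p of the 96 named genes). Its share of the 4 genes per kilobase went from 24.2% and 21.4% to 68.2%, 62.6% and 64.3%. Pfkfb4, often listed as a hypoxia-induced isoform, was at 176 and 169 in normoxia and 151, 173 and 188 in hypoxia, which overlap (log2 change -0.02, adjusted p = 0.971).

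Lower glycolysis gave the same count, 8 risen and 0 fallen of 13 (61.5%, median 0.56). Tpi1, triosephosphate isomerase, was counted at 6683 and 6397 in normoxia and 15379, 12773 and 13099 in hypoxia (log2 change 1.07, SE 0.07). Pgam1, a phosphoglycerate mutase, went from 8786 and 8179 to 17949, 15655 and 16625 (log2 change 0.98). Pgk1, phosphoglycerate kinase, rose by 0.88, Aldoa (aldolase) by 0.56, Pkm (pyruvate kinase) by 0.38 and Gapdh by 0.27. Gapdh, often used as a reference gene, did not pass without normoxia replicate 2 (adjusted p = 0.0733). Eno1, the ubiquitous enolase, went from 26551 and 25861 to 41193, 39711 and 41025. The muscle enolase Eno3 was at 0.00, and per kilobase Eno1 went from 54.3% and 54.7% of the enolases to 63.5% to 66.0%. Ldha, which makes lactate, went from 20607 and 19382 to 35896, 33481 and 32798 (log2 change 0.77, SE 0.05), and Ldhb was at -0.06 (adjusted p = 0.788). In normalized counts added, Pgk1, Pkm, Eno1, Ldha and Aldoa followed Lars2 at the top of all risen genes, with 14975, 14873, 14437, 14064 and 10372 more on average in hypoxia. The pseudogenes Pgk1-rs7 and Pgam1-ps2 also rose, by 0.88 and 1.02. They resemble their parent genes in sequence, and how the counting split such reads is not given in the sources used here.

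Of 9 genes of lactate export and pH control 4 rose and 0 fell (44.4%, median 0.28). Slc16a3, the transporter that exports lactate from glycolytic cells, was counted at 1368 and 1386 in normoxia and 5238, 4286 and 4844 in hypoxia (log2 change 1.79, SE 0.09). Slc16a1, its wider-ranging relative, rose by 0.28. Per kilobase Slc16a3 went from 26.96% and 27.8% of the pair to 48.0% to 54.5%. Car9, a membrane carbonic anhydrase that handles acid outside the cell, was at 26.8 and 18.3 in normoxia and 199, 73.8 and 139.9 in hypoxia, with the widest hypoxia spread of the 4 (log2 change 2.47, SE 0.33). Bsg, the chaperone of both lactate transporters, rose by 0.34. The calls of Slc16a1 and Bsg were lost without normoxia replicate 2 (adjusted p = 0.0655 and 0.165), which left 2 risen genes, and that of Bsg also without normoxia replicate 1 (adjusted p = 0.0885).

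Genes of both making and breaking glycogen rose, 5 of 16 with 0 fallen (31.2%, median 0.29). Ppp1r3b and Ppp1r3c, subunits that bring a phosphatase to glycogen and so favour its synthesis, were measured at low levels. Ppp1r3b was at 33.2 and 41.1 in normoxia and 223, 157 and 176 in hypoxia, and Ppp1r3c at 10.7 and 9.13 and then 62.0, 42.2 and 48.2. Neither gene had overlapping groups, and their log2 changes were 2.28 (SE 0.28) and 2.23 (SE 0.37). Gys1, glycogen synthase of muscle, went from 816 and 883 to 1851, 1324 and 1608 and Pgm1, phosphoglucomutase, from 972 and 951 to 2695, 2007 and 2189. Pygl, a glycogen phosphorylase, rose by 1.17, while the muscle form Pygm was at -0.17 (adjusted p = 0.387). Without normoxia replicate 2 the count was 3, with Ppp1r3c and Pygl lost (adjusted p = 0.0601 and 0.0601).

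**Figure D3:**
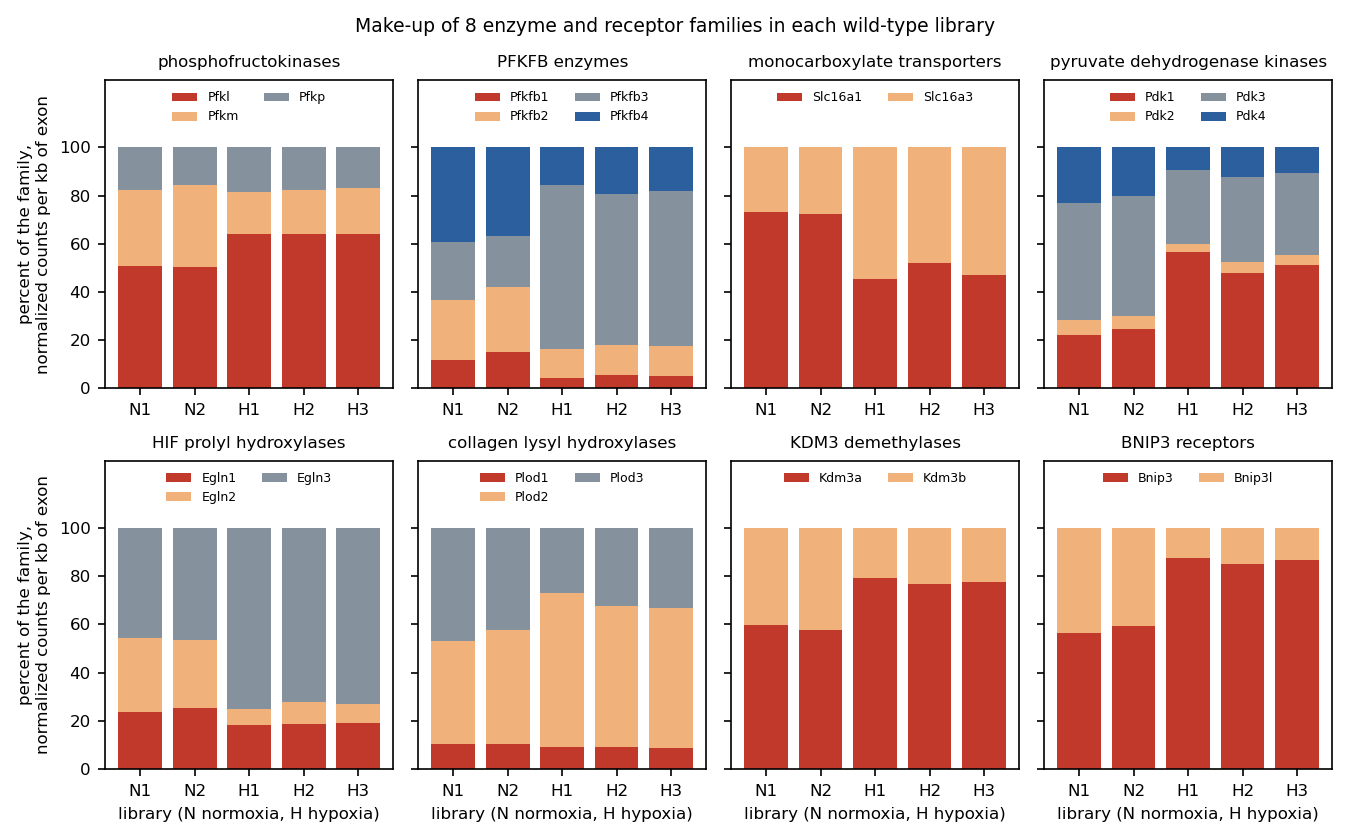
Stacked bars give each member's share of its family, in normalized counts per kilobase of exon, in the 2 normoxia (N1, N2) and 3 hypoxia (H1 to H3) libraries of wild-type cells. Pfkfb3, Slc16a3, Pdk1, Egln3 and Bnip3 hold a larger share in every hypoxia library than in either normoxia library.

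At the gate from pyruvate to the mitochondrion 1 of 14 genes rose and 0 fell (7.14%, median -0.04). That gene was Pdk1, a kinase that switches pyruvate dehydrogenase off, counted at 858 and 993 in normoxia and 4432, 3105 and 3405 in hypoxia (log2 change 1.97, SE 0.12). Its share of the 4 kinases per kilobase went from 22.2% and 24.8% to 56.6%, 48.0% and 51.1%. Pdk4, the kinase known from fasting muscle, was at -0.20 (adjusted p = 0.22). The subunits of the dehydrogenase and the mitochondrial pyruvate carriers ran from -0.26 (Pdhx) to 0.10 (Dld) and did not pass.

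A list of 13 genes known to remodel mitochondria in hypoxia held 10 that rose and 0 that fell (76.9%, median 1.30), the highest share of the 48 lists. The list was made of genes already known for hypoxia, with earlier results of these data known. Its rank is therefore a description and not a test. Bnip3, a receptor that marks mitochondria for removal by autophagy, was counted at 1174 and 1081 in normoxia and 9885, 6959.6 and 7798 in hypoxia (log2 change 2.85, SE 0.13, adjusted p = 2.44e-08). Its relative Bnip3l rose by 0.64, and Bnip3 went from 56.6% and 59.3% of the pair per kilobase to 85.0% to 87.6%. Ak4, an adenylate kinase of the mitochondrial matrix, went from 610.3 and 493 to 2636, 2311 and 2442. Mgarp, a protein involved in the transport of mitochondria, had 22.5 and 18.3 in normoxia and 168, 110.3 and 100.3 in hypoxia. Fam162a, a mitochondrial protein known as a HIF target, rose by 1.30, Mxi1, an antagonist of MYC that lowers mitochondrial biogenesis, by 1.58, and Higd1a, an inner membrane protein known as a HIF target, by 1.21. Fundc1 and Pink1, other mitophagy genes, were at 0.07 and -0.19 and did not pass.

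Of the 83 nuclear-encoded respiratory chain genes 2 rose and 0 fell (2.41%, median -0.02). That share is near the 1.7% risen of all tested genes, so the count does not set the list apart. The 2 genes are known as hypoxic exchange subunits. Ndufa4l2, which lowers complex I activity, was at 32.1 and 50.2 in normoxia and 271, 142 and 189.7 in hypoxia (log2 change 2.24, SE 0.28). Cox4i2, the hypoxic form of a cytochrome oxidase subunit, went from 20.3 and 19.4 to 89.6, 44.3 and 52.9. Next to the usual form Cox4i1 it stayed small, 0.748% and 0.728% of the pair per kilobase in normoxia and 3.10%, 1.58% and 2.06% in hypoxia. The call of Cox4i2 was lost without either normoxia library or hypoxia replicate 1 (adjusted p = 0.0808 to 0.161). Lonp1, the protease that degrades the usual form, rose by 0.43.

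Of 13 messages encoded by mitochondrial DNA 0 rose and 3 fell (23.1%, against 0.468% of all genes, median -0.17). The ATP synthase subunit mt-Atp8 was at 4614 and 4345 in normoxia and 3201, 2761 and 3283 in hypoxia (log2 change -0.54, SE 0.08). The complex I subunit mt-Nd1 went from 42707 and 39992 to 28149, 30157 and 34473, and the complex III subunit mt-Cytb fell by 0.29. The other 10 ranged from -0.85 to 0.49, and 3 of the 13 were above 0. Without normoxia replicate 1 the count fallen was 1, with mt-Nd1 and mt-Cytb lost (adjusted p = 0.075 and 0.227). The call of mt-Cytb was also lost without normoxia replicate 2 and without hypoxia replicate 1 or 2 (adjusted p = 0.077 to 0.102). Mitochondrial transcripts in all, ribosomal RNA included, made up 22.1% to 23.1% of the reads of each wild-type library. Gm10925, a nuclear gene model outside the naming rule that may share reads with mitochondrial genes, fell by 0.49, a call lost without either normoxia library (adjusted p = 0.052 and 0.0646).

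Lars2, the leucyl-tRNA synthetase of mitochondria, had the largest gain in normalized counts of any risen gene, 69954 on average. It was counted at 16474 and 11954 in normoxia and 45348, 89528 and 117630 in hypoxia (log2 change 2.48, SE 0.52, adjusted p = 0.0217). The hypoxia libraries differed from each other by more than 2-fold, and the call was lost without either normoxia library or hypoxia replicate 2 or 3 (adjusted p = 0.0714 to 0.205). Gm42418, which RefSeq lists as a pseudogene related to 18S ribosomal RNA, was at 20501 and 15636 in normoxia and 58098, 129080 and 163350 in hypoxia (adjusted p = 0.0625, not called). The ratio of Lars2 to Gm42418 stayed between 0.694 and 0.804 in the 5 wild-type libraries. In the knockout libraries it was 0.272 in normoxia replicate 1 and 0.640 to 0.760 in the others. The part of ribosomal RNA in the change of Lars2 was not tested. Without Lars2 the 251 risen genes took up 1.99% and 1.98% of normalized counts in normoxia and 3.01%, 2.72% and 2.82% in hypoxia.

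In the oxygen-sensing pathway 3 of 11 genes rose and 0 fell (27.3%, median 0.07). Egln3, a HIF prolyl hydroxylase, was counted at 871 and 831 in normoxia and 5555, 3961 and 4606 in hypoxia (log2 change 2.45, SE 0.11, adjusted p = 2.44e-08). Egln1, the main hydroxylase in most cells, went from 611 and 614 to 1819, 1378 and 1611, while Egln2 was at -0.09 (adjusted p = 0.761). Per kilobase Egln3 made up 45.8% and 46.6% of the 3 hydroxylases in normoxia and 75.1%, 72.2% and 73.1% in hypoxia. Vhl, which brings hydroxylated HIF to the ubiquitin system, rose by 0.63, a call lost without either normoxia library or hypoxia replicate 2 (adjusted p = 0.0555 to 0.187). The messages of the HIF subunits themselves did not pass. Hif1a stood at 3479.9 and 3544 in normoxia and 3817, 3559 and 3464 in hypoxia (log2 change 0.04, SE 0.06, adjusted p = 0.836), and Epas1 was at -0.40 (adjusted p = 0.863).

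Other enzymes that use oxygen as a substrate rose too. Of 17 histone and DNA demethylases of this kind 5 rose and 0 fell (29.4%, median 0.16). Kdm3a, a demethylase of histone H3 lysine 9, was at 775 and 791 in normoxia and 2075, 1919.5 and 1899.8 in hypoxia (log2 change 1.33, SE 0.06), and its relative Kdm3b was at 0.01. Kdm4b and Jmjd6 rose by 1.07 and 0.67, Kdm5b by 0.44 and the DNA demethylase Tet2 by 0.41. The last 2 were lost without normoxia replicate 1 (adjusted p = 0.181 and 0.341), Kdm5b also without normoxia replicate 2 (adjusted p = 0.053) and Tet2 also without hypoxia replicate 1 or 3 (adjusted p = 0.105 to 0.142). Fitted on wild-type libraries alone 3 demethylases rose.

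Of 15 collagen hydroxylases and cross-linkers, a list that also holds the disulfide-forming oxidase Ero1l, 7 rose and 0 fell (46.7%, median 0.24). Of 21 collagens and fibrous matrix genes 0 were called by limma, edgeR or DESeq2 and 2 had an unadjusted p under 0.05 (median 0.00, from -0.27 to 0.23). P4ha1, a prolyl hydroxylase that makes collagen helices stable, was counted at 3606 and 3488 in normoxia and 8359, 7125 and 7015 in hypoxia (log2 change 1.08, SE 0.07). P4ha2, its paralog, went from 334 and 353 to 1249.5, 837 and 911, and P4ha3 was at -0.21 (adjusted p = 0.45). Plod2, the lysyl hydroxylase of collagen cross-links, went from 1915 and 2149 to 4834, 3777 and 3971, and Ero1l, an oxidase that forms disulfides in the endoplasmic reticulum, from 1141 and 1053 to 4409, 3079.9 and 3382. Lox, lysyl oxidase, rose by 0.30. The remaining members that rose, Plod1 (0.43) and P4hb (0.24), were lost without either normoxia library (adjusted p = 0.0731 to 0.189), and Plod1 also without hypoxia replicate 1 or 2 (adjusted p = 0.061 to 0.119). Col1a1, the main chain of type I collagen, was at 0.23 (SE 0.14, adjusted p = 0.512).

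Of 14 secreted angiogenic and vasoactive signals 5 rose and 0 fell (35.7%, median 0.19). Besides Adm these were Vegfa, Apln, Stc1 and Angptl4. Vegfa, the main growth factor of blood vessels, was counted at 2588 and 2762 in normoxia and 5123, 4495 and 4979.6 in hypoxia (log2 change 0.86, SE 0.07). Apln, a peptide that acts on endothelium, rose from 713 and 609 to 2199, 1847 and 2031, and the hormone gene Stc1 from 79.2 and 84.5 to 271, 197 and 247. Angptl4, a lipase inhibitor, rose by 0.96. The related factors Vegfb, Vegfc, Vegfd and Pgf were between -0.11 and 0.20 and did not pass. Endothelial markers summed to 156 and 166 normalized counts in normoxia and 169 to 186 in hypoxia, with Cdh5, Emcn, Cldn5 and Tie1 under 10 in each wild-type library.

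Early response genes were mixed, with 7 risen and 0 fallen of 25 (28.0%, median 0.06). Ier3, a survival gene, stood out, at 299.8 and 265 in normoxia and 944, 804 and 878 in hypoxia (log2 change 1.63, SE 0.10). Fosl2, an AP-1 subunit, rose by 0.67. Both kept their calls whichever library was left out. The other 5 rises, Fosl1 (0.39), Jun (0.30), Egr2 (0.49), Klf2 (0.53) and Klf4 (0.53), were each lost without normoxia replicate 2 (adjusted p = 0.207, 0.34, 0.204, 0.346 and 0.362). Fosl1 was also lost without normoxia replicate 1 or hypoxia replicate 3, Jun without hypoxia replicate 2 or 3, Klf4 without any of the others but hypoxia replicate 1, and Egr2 and Klf2 without any 1 of the 5 (adjusted p = 0.0501 to 0.181 in these fits). Over the 5 libraries left out in turn the count was 2 to 5. Fos, Egr1 and Dusp1, which respond within minutes to serum, were at 0.41, -0.25 and -0.16 and did not pass. Ddit4, which restrains the growth kinase mTORC1, was the only 1 of 17 genes of growth restraint to rise, from 327 and 344 to 1027, 775 and 906 (log2 change 1.42).

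Among 13 clock repressors and outputs 4 rose and 0 fell (30.8%, against 1.7% of all tested genes, median 0.14). Of 10 clock activators 1 rose (10%, median 0.07). Bhlhe40, a repressor of E-box transcription known as a HIF target, was at 366 and 372 in normoxia and 1493, 1151 and 1339 in hypoxia (log2 change 1.84, SE 0.13). Ciart, a repressor that binds BMAL1 and CLOCK, went from 48.2 and 44.5 to 195, 141 and 179.6. Bhlhe41 and Nfil3 rose by 0.79 and 0.55, and the activator Rora by 0.96. Bhlhe41 was lost without normoxia replicate 1 (adjusted p = 0.0632). Per1, Per2, Cry1 and Dbp were between -0.06 and 0.15 and did not pass. Arntl, which encodes BMAL1, was at 264 and 267 in normoxia and 325, 328 and 322 in hypoxia. All 3 hypoxia values were above both normoxia values, and the change of 0.29 (SE 0.10, adjusted p = 0.207) did not pass. A single time of harvest cannot separate a shift in phase from a change in level.

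The largest fall among the genes named by the rule was that of Txnip (ENSMUSG00000038393, chr3:96557957-96561883). This inhibitor of glucose uptake is switched on by the sugar-sensing MondoA complex and was counted at 992 and 1145 in normoxia and 323, 304 and 278 in hypoxia (log2 change -1.82, SE 0.14, adjusted p = 3.82e-06). Arrdc4, its paralog under the same control, went from 95.3 and 131 to 46.7, 59.0 and 44.3. That call was lost without normoxia replicate 2 or hypoxia replicate 1 or 3 (adjusted p = 0.0532 to 0.209). Mlxip, the gene of MondoA, was at -0.08 and its partner Mlx at -0.10, and neither passed.

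Of 16 iron genes 1 rose and 2 fell (6.25% and 12.5%, against 1.7% and 0.468% of all tested genes, median 0.03). The 2 that fell are genes of iron uptake, which itself was not measured. Tfrc (ENSMUSG00000022797, chr16:32608920-32632794), the transferrin receptor, was at 3584 and 3241 in normoxia and 1334, 1508 and 1623 in hypoxia (log2 change -1.20, SE 0.09, adjusted p = 3.6e-06). Slc11a2, the transporter that moves iron out of endosomes, went from 829.8 and 582 to 356, 438 and 409. Its normoxia libraries lay apart and the call was just lost without normoxia replicate 1 (adjusted p = 0.0502). Hmox1, haem oxygenase, rose from 1137 and 973 to 1716, 1541 and 1737 (log2 change 0.66). The ferritin genes Fth1 and Ftl1 were at -0.05 and 0.01, and the iron regulatory genes Aco1 and Ireb2 at -0.06 and -0.01.

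Calls that held whichever wild-type library was left out were few among the fallen genes, 9 in all. They were Txnip, Tfrc, Ccl2, Fbxw17, mt-Atp8, Rbm24, Inka2, Ccn4 and Usp22, of which Rbm24, Inka2, Ccn4 and Usp22 lie outside the naming rule and were chosen after their values were seen. Ccl2, the chemokine that draws monocytes, was at 335 and 340.2 in normoxia and 180.1, 186 and 191 in hypoxia (log2 change -0.86, SE 0.11). Fbxw17, an F-box gene, went from 391.9 and 357 to 249, 235 and 243. Rbm24, a splicing factor of muscle, fell by 0.41, Inka2, an inhibitor of a p21-activated kinase, by 0.53, Ccn4, a matricellular protein, by 0.35 and Usp22, a histone deubiquitinase, by 0.27. The CCN genes Ccn1 and Ccn2 and the factor Srf, also picked after the values were seen, were called with smaller support. Ccn1 was at -0.38, lost without normoxia replicate 1 (adjusted p = 0.105). Ccn2 was at -0.35, lost without any 1 of the 5 (adjusted p = 0.0535 to 0.32), and Srf, a regulator of muscle and cytoskeleton genes, was at -0.31, lost without normoxia replicate 1 or hypoxia replicate 1 or 2 (adjusted p = 0.0629 to 0.21).

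Among the remaining fallen genes of the rule, calls depended on single libraries. Gata3, a transcription factor, was at 106 and 73.1 in normoxia and 27.6, 45.7 and 54.4 in hypoxia (log2 change -1.08, SE 0.26, adjusted p = 0.0446). It passed only when hypoxia replicate 3 was the library left out (adjusted p = 0.0741 to 0.32 otherwise). Cd1d1, which presents lipids to immune cells, and Vamp1, a vesicle fusion protein, fell by 1.05 and 1.02 and each passed without 1 of the 5 libraries (adjusted p = 0.0632 to 0.265 and 0.0511 to 0.228 without the others). E2f2, a cell cycle factor, fell by 0.77 and was lost without normoxia replicate 2 or hypoxia replicate 1 (adjusted p = 0.187 and 0.0558). Wdr5b was lost whichever of the 5 libraries was left out (adjusted p = 0.0535 to 0.179) and Crebrf passed only without normoxia replicate 1 (adjusted p = 0.0742 to 0.371 otherwise). The single fall past 4-fold was in Sema4f, a semaphorin below the level the naming rule asks for, at 22.5 and 20.6 in normoxia and 0, 4.22 and 0.777 in hypoxia. Its call was lost without hypoxia replicate 1 or 3 (adjusted p = 0.0734 and 0.0752), and without either normoxia library it no longer met the filter on low values. Sema4f was thus tested only through its wild-type normoxia values, the group in which it was high, and its fall carries that choice.

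Of 24 p53 targets 1 rose and 4 fell (4.17% and 16.7%, against 1.7% and 0.468% of all tested genes), 20 were below 0 and the median was -0.22. Trp53inp1, a stress-induced partner of p53, was at 1212 and 1305 in normoxia and 932, 880.0 and 875 in hypoxia, and Eda2r, Ei24 and Gadd45a fell by 0.31, 0.26 and 0.33. Without normoxia replicate 2 none of the 4 passed (adjusted p = 0.053 to 0.195). Over the 5 libraries left out in turn, 0 to 4 of the p53 targets fell. The 1 that rose was Ddit4, which HIF is also known to drive. The integrated stress response had 1 risen of 22 (4.55%), the lipoprotein receptor Vldlr (0.78), while Atf4 and Ddit3 were at -0.11 and -0.29. Of 20 chaperones and unfolded protein response genes 1 rose (5%), Hsp90b1, by 0.22, and this call was lost without either normoxia library or hypoxia replicate 2 (adjusted p = 0.0589 to 0.159). By limma 0 of 15 heat shock genes and 0 of 22 autophagy and lysosome genes were called, with 4 and 5 at an unadjusted p under 0.05, 0 and 0 called by edgeR and 1 and 2 by DESeq2.

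The shares of lipid and NAD genes that rose are read against the 1.7% of all tested genes. Hilpda, an inhibitor of the fat-splitting lipase, was at 198 and 185 in normoxia and 691, 571 and 559 in hypoxia (log2 change 1.65, SE 0.10). With Scd2 (0.53), a desaturase, and G0s2 (0.39), another inhibitor of that lipase, 3 of 27 lipid genes rose and 0 fell (11.1%, median 0.06). G0s2 was lost without normoxia replicate 2 (adjusted p = 0.092). Nampt, which makes the NAD precursor, rose from 930.5 and 819.7 to 1852, 1532 and 1496, and was the only 1 of 16 NAD genes to rise (6.25%). Of 23 cholesterol synthesis genes 0 were called by limma, edgeR or DESeq2 and 5 had an unadjusted p under 0.05.

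The counts of called genes of muscle identity and proliferation are read against the 2.17% called of all tested genes. Counts at an unadjusted p under 0.05 are read against the 13.6% of all tested genes at that level. Of 18 genes of satellite cell and myoblast identity 0 were called by limma or edgeR and 1 by DESeq2, with 6 at an unadjusted p under 0.05 (median -0.11). Pax7, the factor of muscle stem cells, was at 1298 and 1447 in normoxia and 1574, 1307 and 1595 in hypoxia, and these overlapped. Myod1, the factor that commits cells to muscle, was at 9502 and 9124 in normoxia and 8196, 7793 and 8851 in hypoxia, lower in each hypoxia library, with a change of -0.17 (SE 0.06, adjusted p = 0.208) that did not pass. Of 25 differentiation and fusion genes 1 fell, the giant sarcomere gene Neb (-0.32), and that call was lost without normoxia replicate 2 or hypoxia replicate 1 or 2 (adjusted p = 0.103 to 0.356). Of 30 genes each of DNA replication, mitosis and ribosome biogenesis 0 were called by limma or edgeR, and their log2 changes lay between -0.21 and 0.24. DESeq2 called 0, 1 and 0 of them, and 3, 7 and 4 had an unadjusted p under 0.05. Of 20 D cyclins and CDK inhibitors 2 rose and 0 fell (10%, against 1.7% of all tested genes, median 0.05), and 9 were below 0. Ccng2, which slows the cell cycle, rose from 919.8 and 994 to 1977, 1693 and 1669.7 and the inhibitor Cdkn1b by 0.38. Cdkn1b was lost without either normoxia library or hypoxia replicate 1 (adjusted p = 0.0856 to 0.261). Among 84 cytosolic ribosomal protein genes 0 were called by limma or edgeR and 1 by DESeq2, with 9 at an unadjusted p under 0.05 (median 0.03, from -0.08 to 0.37).

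**Figure D4:**
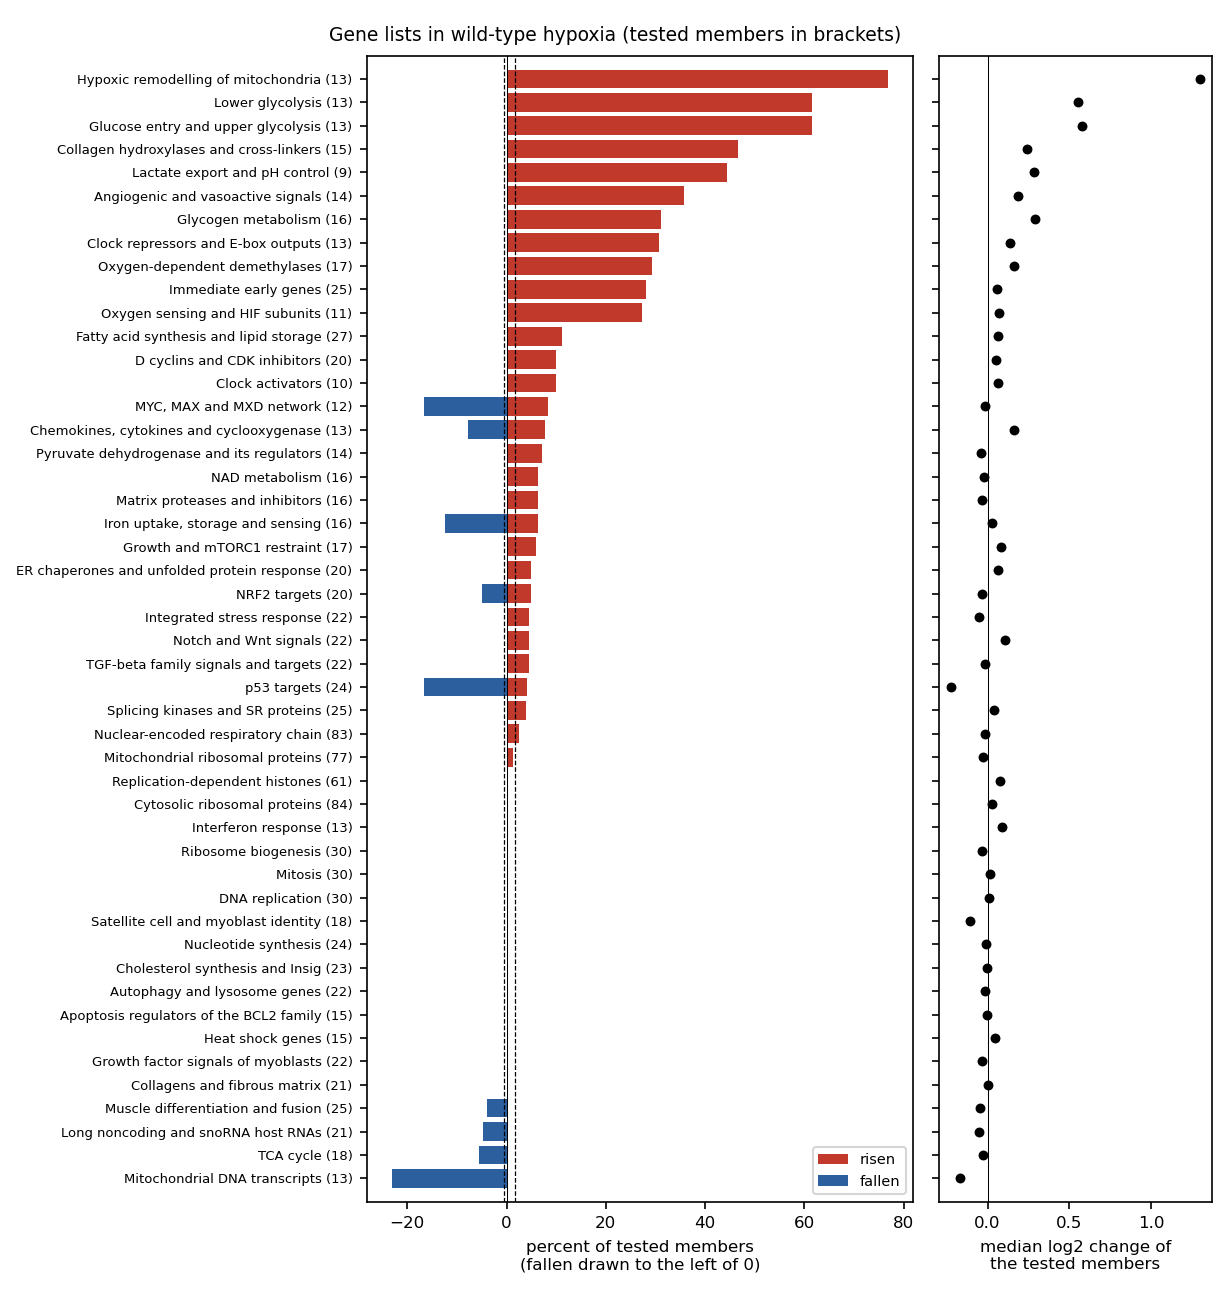
Bars give the percent of each list's tested members that rose (red) or fell (blue, drawn leftward), with dashed lines at the 1.7% and 0.468% of all tested genes, and dots give the list's median log2 change. Mitochondrial remodelling (76.9%) and the 2 glycolysis lists (61.5% each) lead, and 11 lists have over 25% of their members risen. The lists were chosen with earlier results of these data known.

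Markers of the cells in the cultures were checked beside these results. The 9 tested myoblast markers had 0 called by limma and summed to 52008 and 52085 normalized counts in normoxia and 48153 to 50185 in hypoxia. Fibroblast markers summed to 3756 and 3831 against 3628 to 4006, with Dpt, Pi16 and Dpp4 under 10. Pericyte and smooth muscle markers summed to 38172 and 39816 against 34038 to 35055, and of these Acta2, smooth muscle actin that myoblasts also make, fell by 0.19, a call lost without normoxia replicate 1 (adjusted p = 0.132). Leukocyte markers summed to 31 to 51 and 17 to 31, with Itgam under 10. Of the epithelial markers Krt19 was the only 1 to rise, while Epcam, Cdh1 and Krt8 were under 10 in each wild-type library. In bulk RNA a change in the number of cells of a type and a change in RNA per cell cannot be told apart.

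The 3 hypoxia libraries did not respond equally. This was read on the 464 genes that rose in knockout hypoxia, which were chosen by the knockout contrast. Replicate 1 was the highest of the wild-type hypoxia libraries for 56.0% of them and replicate 2 the lowest for 61.9%, against 35.8% and 32.7% of all tested genes. The median log2 value over wild-type normoxia was 0.34, 0.27 and 0.33 for replicates 1, 2 and 3. Replicate 2 also had the most reads, and the part of depth in this order was not tested.

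The knockout libraries, which share no sample with the wild-type ones, allow the same genes to be read in a second set of cells. Both contrasts use the same variance estimate for each gene, so the calls in the genotypes are not fully independent. In knockout hypoxia 464 genes rose (3.15% of those tested) and 138 fell (0.937%). Of the 251 wild-type rises 200 were also rises there, which is 79.68% of the wild-type list and 43.1% of the knockout list. Of the 69 that fell in wild-type cells 38 also fell, 55.07% and 27.54% of the lists. Of the 51 and 31 that did not pass in the knockout, 46 and 27 kept the sign. Adm was at 3.11 in knockout cells, Bnip3 at 2.52, Egln3 at 2.38, Slc2a1 at 1.86, Txnip at -1.62 and Tfrc at -0.99 on the log2 scale.

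A difference of the oxygen effect by genotype was called for 1 gene of 14729 (0.00679%) and for 0 of the 320 genes called in wild-type cells, of which 50 had an unadjusted p under 0.05 (15.6%, against 784 or 5.32% of all tested genes). Among these were Hilpda, at 1.65 in wild-type and 1.08 in knockout cells (unadjusted p = 0.000785, adjusted p = 0.598), Kdm3a, at 1.33 and 1.02 (unadjusted p = 0.00237), Bhlhe40, at 1.84 and 2.41 (unadjusted p = 0.00578), and Gata3, at -1.08 and 0.18 (unadjusted p = 0.00268). None passed after adjustment over all genes, which does not show that the genotypes respond alike. The 320 genes were chosen by their wild-type effect, which also enters the difference. That choice can by itself raise their share at a low unadjusted p, so the share is no test of genotype. Replication-dependent histone genes had 0 of 61 called by limma, edgeR or DESeq2 in wild-type cells (7 at an unadjusted p under 0.05, median 0.08) and 38 risen in knockout cells (62.3%, against 3.15% of all tested genes, median 0.35). The difference was called for 0 of them and had an unadjusted p under 0.05 for 40 (65.6%, against 5.32% of all tested genes). Their log2 changes in wild-type cells ran from -1.52 to 2.36.

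**Figure D5:**
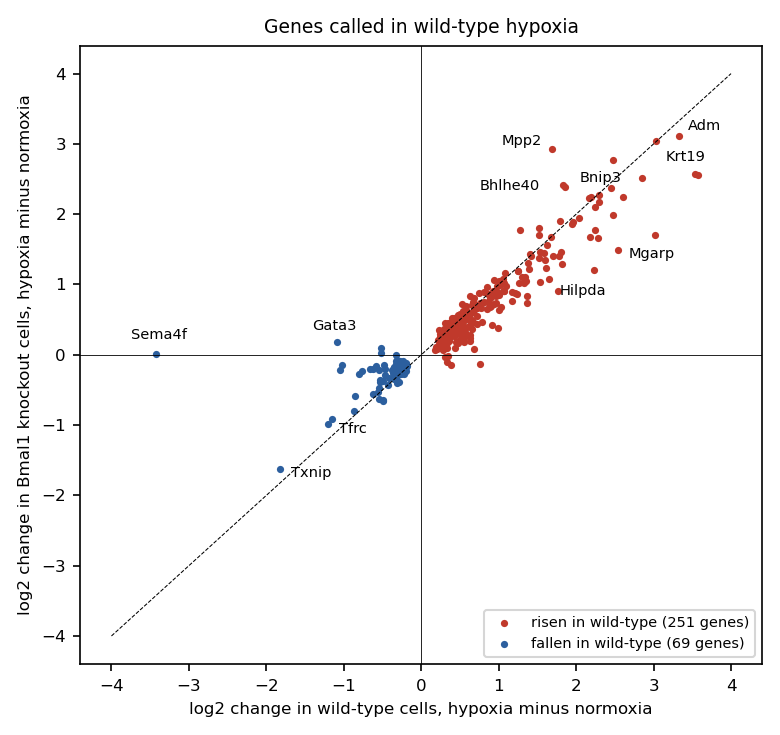
Each point is 1 of the 320 genes called in wild-type hypoxia, with its log2 change in wild-type cells on the x axis and in Bmal1-/- cells on the y axis, and the dashed line marks equal change. Most points lie near the line, with Hilpda and Mgarp below it, Mpp2 and Bhlhe40 above it and Gata3 near 0 in knockout cells. Sema4f also lies near 0 there, but its normalized counts were under 10 in every knockout library. Its place is therefore no comparison of the genotypes.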

How the data were processed

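RNA was sequenced from TruSeq stranded total RNA libraries made from 1 µg, per the labels' protocols. The deposited table holds 1 normalized signal per gene and library, which the authors obtained by dividing read counts by a size factor per library. The submitters' processing notes name bcl2fastq, STAR, Picard, HTSeq, RSEM, DESeq2 and mm10, and the counting tool is not given in the sources used here. Whole reads were recovered from the deposited signal (100% of values within 0.01 of a whole number), and gave 18707697 to 33613328 reads per library. All 22104 rows were read, with 0 columns unused. GENCODE M21 gave gene classes and exon lengths. The exon length of a gene is the union of all its annotated exons and not the length of the transcript in these cells. Shares per kilobase between members of a family depend on that length and are not shares of molecules.

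On log2(normalized count + 1), limma 3.58.1 in R 4.3.3 fitted 4 group means over 11 libraries with an intensity trend. Genes needed at least 10 in 2 libraries, p-values were Benjamini-Hochberg adjusted over 14729 genes, and an adjusted p under 0.05 was a call. edgeR 4.0.16 and DESeq2 1.42.0 on the recovered reads, other pseudocounts, filters and scalings, wild-type libraries alone and each library left out were alternatives. The steps were tested on simulated data.

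Named genes were 10 set ones, the 15 risen and 12 fallen genes with the largest changes (groups apart, a mean of 50 or more in the group with more, predicted models and pseudogenes left out) and up to 4 called members per list. Other called members were named to complete a list, after their values were seen. The members and lists were chosen with earlier results of these data known. Ribosomal protein genes were found by symbol, without S6 kinases.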

Additional observations from a re-analysis of the deposited data

Results flagged for a closer look

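One gene drew attention because its hypoxia effect differed between the genotypes. It was a small nucleolar RNA gene on chromosome 2 (158359798 to 158359929), inside Snhg17 and on the same strand. It is listed as Gm23925, a symbol that the table holds more than once. In wild-type cells its normalized counts were 37.5 and 35.4 at normoxia and 44.8, 34.4 and 26.4 at hypoxia, which overlap, and its change in wild-type cells did not pass. In knockout cells it was at 0 in all 3 normoxia libraries and at 31.0, 28.2 and 16.4 in hypoxia. Snhg17 was at 724, 672 and 673 in knockout normoxia and 541, 624 and 571 in knockout hypoxia. How reads were split between these genes, or with the other entry of the symbol, was not tested. For the small nucleolar RNA gene the knockout effect minus the wild-type effect was 4.74 on the log2(normalized count + 1) scale (limma, SE 0.50, adjusted p = 0.00368). This value depends on the pseudocount, so no fold is given. The call was lost with a pseudocount of 5 (2.63, adjusted p = 0.0928) and by edgeR (adjusted p = 0.108), and the gene was not tested under the filter of at least 50. It held by DESeq2 (adjusted p = 0.00181) and with each of the 11 libraries left out in turn (limma, adjusted p = 0.00358 to 0.0384).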

How the results depend on the processing

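The wild-type counts depended most on the 2 normoxia libraries. Leaving out 1 wild-type library at a time gave 143 to 216 risen genes (251 with all libraries) and 18 to 49 fallen genes (69 with all), and fitting the wild-type libraries alone gave 35 fallen genes. The difference between genotypes was called upward for 1 gene with all libraries, 0 with a pseudocount of 5, 0 with a filter of at least 50, 0 by edgeR, 4 by DESeq2 and 1 to 2 with 1 library of either genotype left out. It was called downward for 0 genes, 1 by DESeq2 and 0 to 1 with 1 such library left out. These causes were not tested. By edgeR and DESeq2 alike 237 of the 251 risen and 64 of the 69 fallen genes were called. Of the 96 named genes 92 were called. Over the 96, 1132 of 1248 pairs of gene and setting kept their side of the threshold, 116 fell below it and 0 calls turned direction. Hif1a, which was not called, was at 0.04 with all libraries and as low as -0.0 with 1 library left out. All settings left the median of all genes between -0.003 and 0.001. No paired analysis was possible because the labels give no replicate numbers. The replicate numbers used here follow the order of the sample titles within each group. The median SE was 0.38 for genes with a mean under 50 and 0.05 above 5000, so smaller changes could be called in the genes with more counts.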

Other observations

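Growth factor and signalling genes outside the hypoxic lists were also counted in wild-type cells. Of 22 growth factor and receptor genes of myoblasts 0 were called by limma, edgeR or DESeq2 and 6 had an unadjusted p under 0.05 (against 13.6% of all tested genes, median -0.03). Of 22 genes of the TGF-beta family and 22 of Notch and Wnt signalling 1 each rose (4.55%, against 1.7% of all tested genes). These were Id2, an inhibitor of basic helix-loop-helix factors (log2 change 0.29), and the ligand Wnt5a (0.35). With 1 wild-type library left out, Id2 passed only without hypoxia replicate 2 (adjusted p = 0.0554 to 0.203 without another wild-type library), and Wnt5a was lost without normoxia replicate 1 (adjusted p = 0.151). Chemokines and cytokines had 1 risen and 1 fallen of 13, the cytokine Mif (0.40) and Ccl2 (-0.86). Of 13 interferon response genes 0 were called by limma, edgeR or DESeq2 and 0 had an unadjusted p under 0.05. Of 24 nucleotide synthesis genes 0 were called by the same tools and 2 had an unadjusted p under 0.05.

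Dbh, the enzyme that makes noradrenaline from dopamine, was picked after its values were seen, because it had one of the largest changes without a call. It stood at 94.2 and 63.9 in normoxia and 46.7, 6.33 and 6.996 in hypoxia, with a log2 change of -2.48 (limma, adjusted p = 0.0891). Hypoxia replicate 1 lay close to normoxia and the other hypoxia libraries far below it.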
